A study of Rattus norvegicus with 24 samples.

Results

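The genes described here are 3 myosin heavy chains, titin and muscle creatine kinase: Myh6, Myh1, Myh3, Ttn and Ckm. They were chosen by gene symbol, as the probes that the array's probe-to-gene table assigns to 1 of these 5 genes. They are 5 of 4126 named genes and hold 10 of 4803 probes. Ttn has 6 probes and each of the other 4 genes has 1. All 10 symbols matched the RefSeq annotation through their Entrez identifiers, where Myh6 lies on rat chromosome 15, Myh1 and Myh3 on chromosome 10, Ttn on chromosome 3 and Ckm on chromosome 1.

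The study compared heart ventricles of rats injected with monocrotaline with those of control rats. Monocrotaline is a plant alkaloid that injures lung vessels and so loads the right ventricle. What the control rats received is not stated here. Total RNA of each of 24 ventricle samples was hybridised on a 2-colour array against a common reference pool. The labels name 3 conditions, CHF, HYP and CON, all at day 14. The series title speaks of decompensated and compensated hypertrophy, so CHF and HYP are read here as these states and CON as the control, although the labels do not spell the abbreviations out. The right ventricle (RV) gave 6 arrays of CHF, 6 of HYP and 6 of CON, and the left ventricle (LV) gave 2 arrays of each. The labels give neither strain, age, sex nor dose, and they do not say whether each sample is a separate animal, so a p-value here sets a difference against the spread of these samples alone, and that spread may be technical.

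Myosin heavy chains are the motors of the thick filament, and each muscle uses its own set of chains. In the adult rodent ventricle the fast alpha chain, made from Myh6, predominates, and under pressure load it is known to give way to the slower beta chain of Myh7. Myh1 encodes a chain of fast adult skeletal fibres and Myh3 the chain of embryonic skeletal muscle. Titin spans the sarcomere from Z disc to M band as a spring and a scaffold for myosin, and muscle creatine kinase passes phosphate between creatine phosphate and ADP close to the filaments.

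The promoters of Myh6, Ckm and Myh3 are shown because of a split between kinds of RV array, described below by the deposited array median. On RV arrays with a median above 0, Myh6 and Ckm scores were low. Myh3 scores were mostly higher there, from 0.02 to 1.56 against -0.81 to 0.45, with overlap. The kinds of array also separated 8.75% of 1942 features without overlap. With the sign turned on some arrays, as described below, Ckm overlapped too. Any part of the promoters was not tested. The windows run from 250 bases before to 50 bases after the annotated start of the gene, are taken from RefSeq on GRCr8 and are printed along the gene's own strand. They lie at chr15:32411648-32411947 (minus strand) for Myh6, chr1:88189211-88189510 (plus strand) for Ckm and chr10:52268935-52269234 (plus strand) for Myh3. Capitals mark matches, on either strand, to the E-box CANNTG, the MCAT element CATTCC, the TATA box TATAAA, the CArG box and the MEF2 site.
Myh6: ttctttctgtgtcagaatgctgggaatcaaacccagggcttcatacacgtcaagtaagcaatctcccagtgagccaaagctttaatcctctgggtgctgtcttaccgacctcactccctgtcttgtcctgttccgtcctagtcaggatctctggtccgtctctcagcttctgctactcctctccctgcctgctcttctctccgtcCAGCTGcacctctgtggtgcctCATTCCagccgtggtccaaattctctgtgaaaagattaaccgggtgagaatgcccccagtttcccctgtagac
Ckm: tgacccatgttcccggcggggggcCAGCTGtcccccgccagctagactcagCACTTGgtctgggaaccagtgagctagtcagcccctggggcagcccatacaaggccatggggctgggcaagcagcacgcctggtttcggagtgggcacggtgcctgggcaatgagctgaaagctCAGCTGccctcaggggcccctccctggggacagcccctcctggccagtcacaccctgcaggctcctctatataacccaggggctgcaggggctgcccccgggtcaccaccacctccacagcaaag
Myh3: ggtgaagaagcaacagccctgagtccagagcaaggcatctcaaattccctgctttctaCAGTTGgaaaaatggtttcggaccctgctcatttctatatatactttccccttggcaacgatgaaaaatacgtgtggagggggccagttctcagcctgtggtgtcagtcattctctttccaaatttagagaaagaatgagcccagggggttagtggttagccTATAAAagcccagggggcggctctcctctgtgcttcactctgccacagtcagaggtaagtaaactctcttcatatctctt
The Myh6 window holds 1 E-box and 1 MCAT match, the Ckm window 3 E-boxes, and the Myh3 window 1 E-box and 1 TATA match. The windows of the other two genes were searched in the same way. The Myh1 window holds 1 MCAT, 2 TATA and 1 MEF2 match, of which 2 overlap another motif, and the Ttn window 1 E-box, 1 MCAT and 1 MEF2 match. Over 33469 rat promoters of the same length, 72.1% hold the E-box, 14.2% MCAT, 14.2% TATA, 3.29% MEF2 and 1.64% CArG. The common motifs are therefore shared with most or many other promoters.

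Each deposited value is a standardised score of the sample against the pool, and differences are given in array SDs, not as fold changes. Scores were centred on the median of each array. An array had 2162 to 3658 values. Sample over pool is the direction assumed, but it is not settled, because the dyes are not stated in the sources used here and the lowest correlation between 2 arrays was -0.530. Comparisons were therefore repeated with the sign turned on 5 arrays, CHF RV 10 and 14, CHF LV 9 and CON LV 21 and 22. The arrays also fall into 2 kinds by the deposited array median, which was seen in the data and is not named in the labels. It was above 0 on 10 RV arrays (4 CHF, 4 HYP and 2 CON), between 0.03 and 0.217, and below 0 on the other 8 RV arrays (2 CHF, 2 HYP and 4 CON), between -0.147 and -0.068. On all 6 LV arrays it was below 0, between -0.2 and -0.074. Without the 5 genes, the median correlation across 1667 probes was 0.678 between RV arrays above 0, 0.338 between those below 0 and 0.189 between the kinds.

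**Figure D1:**
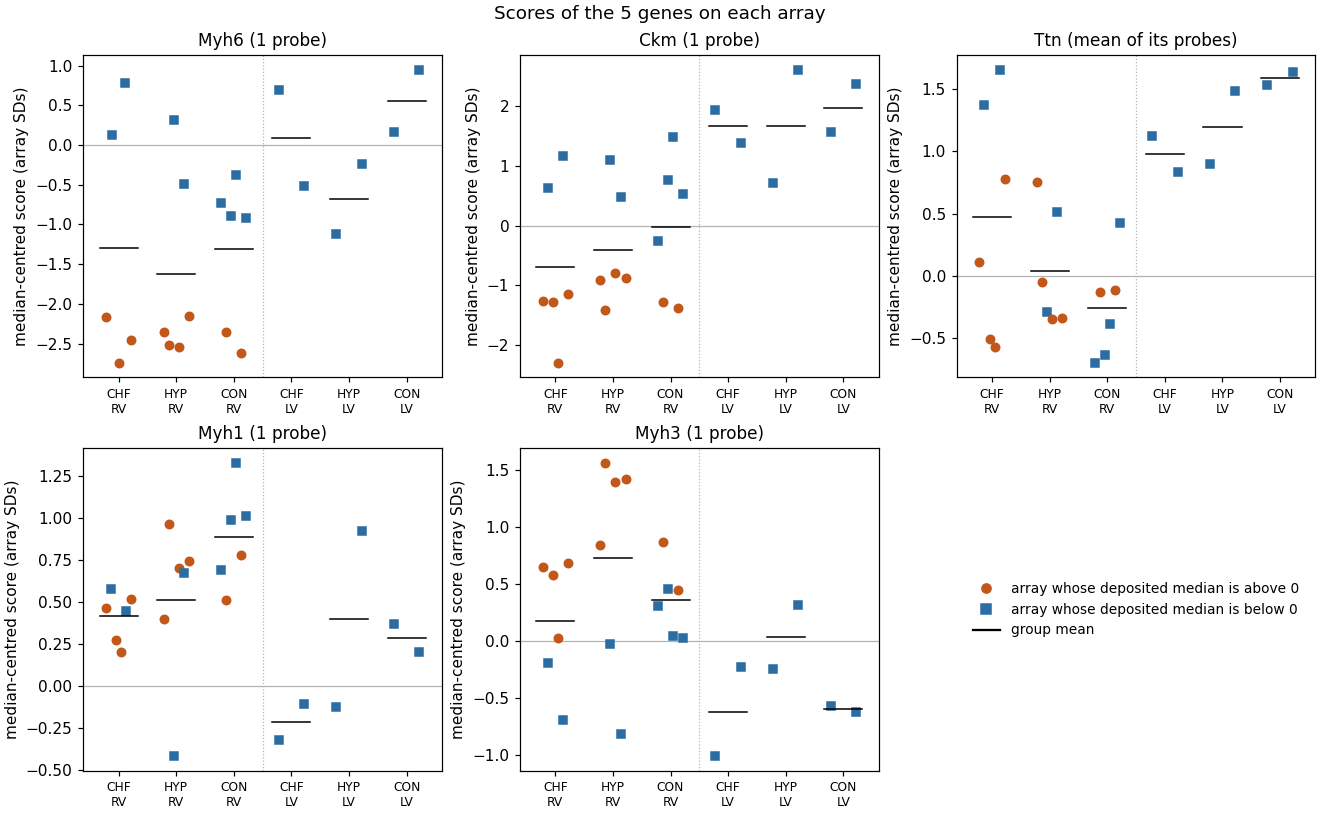
Median-centred score in array SDs (vertical axis) of Myh6, Ckm, Ttn, Myh1 and Myh3 on each array, by condition and ventricle (horizontal axis). Circles are arrays whose deposited median is above 0, squares those below 0, and bars are group means. The Myh6 circles lie between -2.74 and -2.15 and all squares of the right ventricle between -0.91 and 0.78, in each of the 3 conditions.

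Myh6, the alpha chain, was measured by probe 3193 on 23 arrays and had no value on CHF RV array 12. Its score in CHF RV was -2.16, 0.13, -2.74, 0.78 and -2.46. In HYP RV it ran from -2.55 through a median of -2.25 to 0.31, and in CON RV from -2.62 through -0.90 to -0.38. The highest CON array was at -0.38, and both CHF arrays and 1 of 2 HYP arrays with a median below 0 were above it. Below that the 3 conditions overlapped, and within each of them the arrays fell into a low and a high set. On the 9 RV arrays with a median above 0 and a Myh6 value, the scores were between -2.74 and -2.15. On the 8 RV arrays with a median below 0 they were between -0.91 and 0.78. The kinds of array did not overlap, and this holds with the sign turned, when the second range is -0.91 to 0.31. Of 1942 features with a value on at least 9 and 8 of these arrays, 8.75% did not overlap. The LV scores were 0.69 and -0.52 in CHF, -1.12 and -0.24 in HYP and 0.17 and 0.95 in CON, in and near the range of the RV arrays below 0. The RefSeq entry of Myh6 lists Myh7 among its synonyms, and no probe of the table carries the symbol Myh7. Probe sequences were not used here, so how far probe 3193 separates the alpha from the beta chain was not tested.

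Ckm, muscle creatine kinase, was measured by probe 2386 on all 24 arrays. In CHF RV its score ran from -2.29 through a median of -1.20 to 1.16, in HYP RV from -1.41 through -0.83 to 1.10, and in CON RV from -1.38 through 0.14 to 1.47. The conditions overlapped widely. As for Myh6, the 10 RV arrays with a median above 0 were all low, between -2.29 and -0.79, and the 8 with a median below 0 were higher, between -0.25 and 1.47. After turning the sign of CHF RV 10 and 14 the second range becomes -1.16 to 1.47 and the kinds overlap. The share of non-overlapping features among the 1656 with values on all 18 RV arrays was 6.76%. In the LV, Ckm was at 1.94 and 1.38 in CHF, 0.72 and 2.61 in HYP, and 1.57 and 2.37 in CON.

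**Figure D2:**
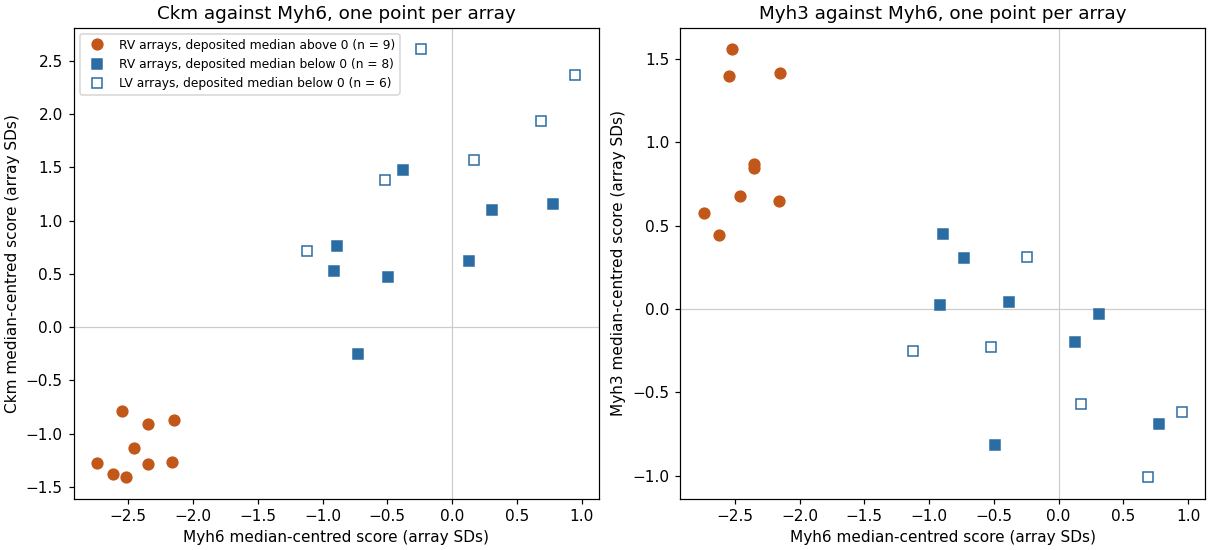
Score of Ckm (left) and of Myh3 (right) against the score of Myh6 in array SDs, 1 point per array with both values. Orange circles are the 9 RV arrays with a deposited median above 0, filled squares the 8 RV arrays below 0 and open squares the 6 LV arrays. The circles form a group at low Myh6 and low Ckm and, on the right, at low Myh6 with Myh3 between 0.44 and 1.56.

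Within each kind of array, Pearson's r between Myh6 and Ckm was 0.32 over 9 RV arrays above 0, 0.51 over 8 below 0 and 0.69 over 6 LV arrays. These arrays share the reference pool and the centring, and the values are given as a description. Between Myh6 and Myh3 it was 0.22, -0.57 and -0.63 over the same arrays. Between Myh1 and Myh3 it was 0.75 over 10 RV arrays above 0, 0.24 over 8 below 0 and 0.70 in the LV. The RV arrays below 0 include CHF RV 10 and 14, and the LV arrays include CHF LV 9 and CON LV 21 and 22. The correlations were not recomputed with the sign of these arrays turned. Their direction and size below 0 and in the LV are therefore not settled.

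Myh3, the embryonic chain, was measured by probe 2450 on all 24 arrays. Its score in CHF RV ran from -0.69 through a median of 0.30 to 0.68, in HYP RV from -0.81 through 1.12 to 1.56, and in CON RV from 0.03 through 0.37 to 0.87. The 4 HYP arrays with a median above 0 were at 0.84 to 1.56, and 3 of them were higher than every other RV array. CHF arrays 10 and 14 and HYP arrays 4 and 6 were the only RV arrays with a Myh3 score below 0. Over all conditions Myh3 was at 0.02 to 1.56 on the RV arrays with a median above 0. On those with a median below 0 it was at -0.81 to 0.45, with overlap. After turning the sign of CHF RV 10 and 14 the second range becomes -0.81 to 0.69. In the LV it was at -1.01 and -0.23 in CHF, -0.25 and 0.31 in HYP and -0.57 and -0.62 in CON.

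Myh1, the fast skeletal chain, was measured by probe 3595 on all 24 arrays. Its score in CHF RV ran from 0.20 through a median of 0.46 to 0.58, in HYP RV from -0.42 through 0.69 to 0.96, and in CON RV from 0.51 through 0.88 to 1.33. CHF lay low and close together, and its top 2 values overlapped the lowest CON value. The kinds of array overlapped for Myh1, at 0.20 to 0.96 on the RV arrays above 0 and -0.42 to 1.33 on those below 0. In the LV it was at -0.32 and -0.11 in CHF, -0.12 and 0.92 in HYP and 0.37 and 0.20 in CON.

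Ttn, titin, is the mean of up to 6 probes, and which of them had a value differed between arrays. Probes 582, 4237 and 4267 had a value on all 24 arrays, probe 1456 on 12, probe 1997 on 10 and probe 4268 on 6. The mean score in CHF RV ran from -0.57 through a median of 0.45 to 1.66, in HYP RV from -0.35 through -0.17 to 0.75, and in CON RV from -0.70 through -0.26 to 0.42. The 2 highest RV values, 1.37 and 1.66, were those of CHF arrays 10 and 14. In the LV the mean was 1.13 and 0.83 in CHF, 0.90 and 1.49 in HYP, and 1.54 and 1.64 in CON, higher than every RV array but CHF 10 and 14.

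The 6 titin probes did not move together. Probe 1997 had 2 values in each RV condition, all on arrays with a median below 0: 5.26 and 5.52 in CHF, 0.26 and 1.24 in HYP and -2.50 and -0.80 in CON. Its values fell into 3 separate ranges, with CHF at the top. In the LV it was at 3.94 and 2.66 in HYP and 4.35 and 4.74 in CON, and had no value in CHF. Fitted on its own, CHF exceeded CON by 7.04 ± 0.70 (SE, n = 2 each, limma adjusted p = 0.0055), among 0.948% of 3269 probes called. After turning the sign of CHF arrays 10 and 14, which alone of the CHF RV arrays gave it a value, the difference was -3.74 (adjusted p = 0.138), so its direction is not settled. Of 53 probes with 2 values in each of CHF and CON, 35.8% had CHF above CON without overlap. Probe 4268 had 2.52 in CHF, -0.35 and 0.96 in HYP and -1.10 in CON in the RV, too few values for a fit.

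Probe 582 separated the ventricles. It was at -0.53 to 1.15 in CHF RV, -0.89 to 0.35 in HYP RV and -0.35 to 1.29 in CON RV, against 2.75 and 3.07 in CHF LV, 1.44 and 1.20 in HYP LV and 2.53 and 1.76 in CON LV. Only CON RV array 22, at 1.29, exceeded the lowest LV array. Probes 4237 and 4267 lay between -1.43 and 0.81 on all arrays, in the RV and the LV alike. Probe 1456 ranged from -0.21 to 3.25 on 10 RV arrays and was at 1.74 and 2.01 on 2 LV arrays.

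**Figure D3:**
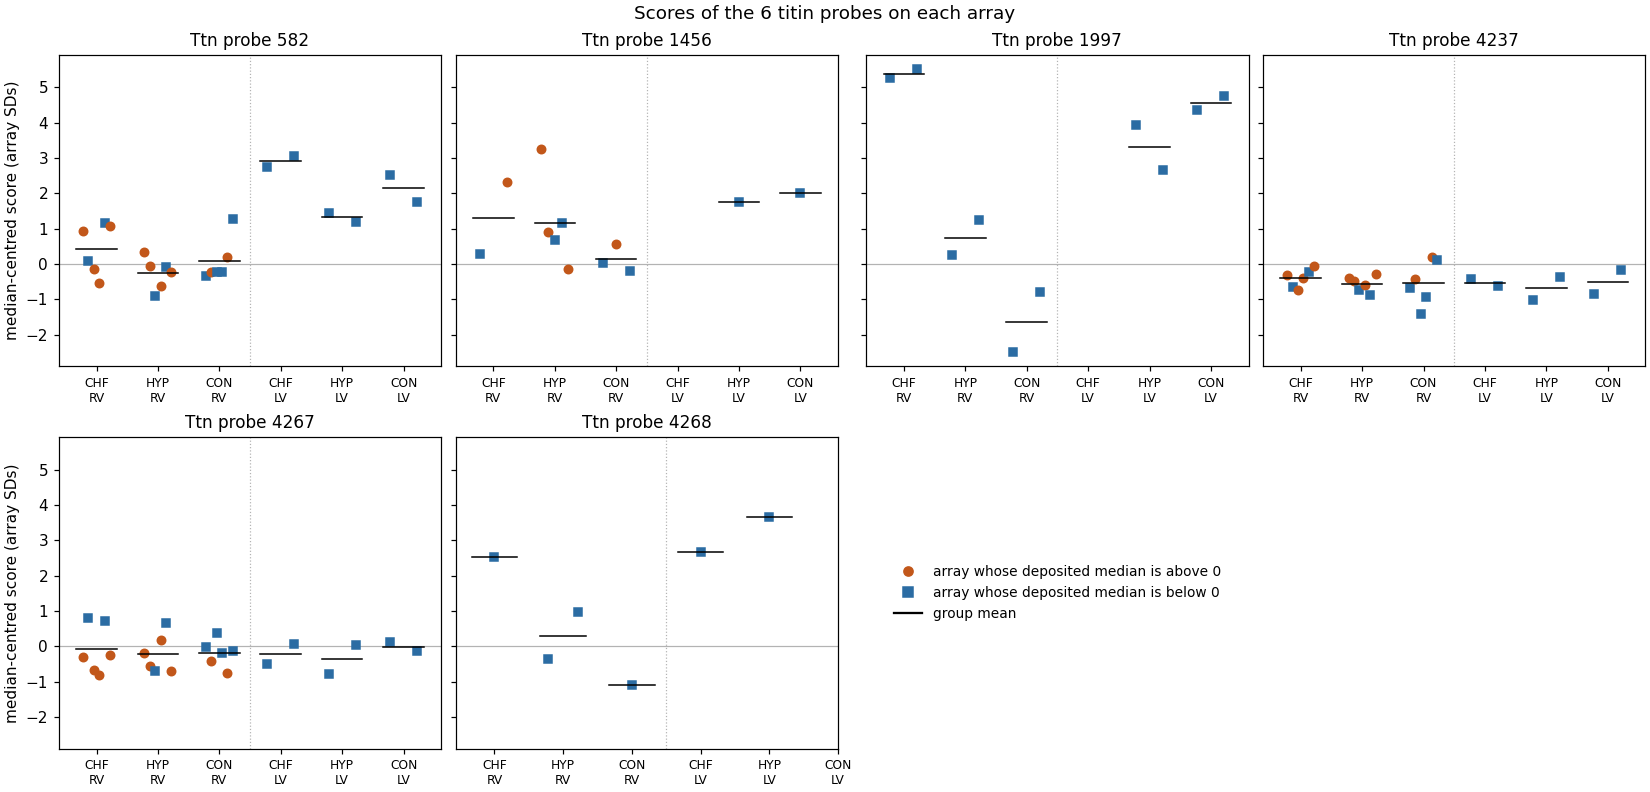
Median-centred score in array SDs (vertical axis, same scale in every panel) of the 6 titin probes on each array, by condition and ventricle. Circles are arrays with a deposited median above 0, squares those below 0, bars are group means, and an array with no value has no symbol. Probe 582 is higher in the LV, and probe 1997 has CHF RV at 5.26 and 5.52 against CON RV at -2.50 and -0.80. Probes 4237 and 4267 are alike in the RV and the LV. In the RV, probe 4267 averages -0.45 on arrays above 0 and 0.19 on those below 0.

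CHF RV against CON RV was the first comparison. None of the 5 genes passed the test in CHF RV against CON RV: 0 of 5 by limma at an adjusted p below 0.05, where 0.907% of 3199 features did, and 0 of 5 at an unadjusted p below 0.05, which 272 features had. CHF and CON were free of overlap in 0 of 5 genes, where they were in 3.22% of features. CHF minus CON was 0.73 ± 0.37 for Ttn (adjusted p = 0.61) and 0.02 ± 0.70 for Myh6 (adjusted p = 0.997). Ckm differed by -0.67 ± 0.61 (adjusted p = 0.80), Myh1 by -0.47 ± 0.24 (0.60) and Myh3 by -0.18 ± 0.38 (0.92). The median difference of the 5 genes was -0.183, against -0.0992 over all features tested. Myh1 had the smallest p of 15 exact two-sided permutation tests over RV samples, 0.00649, which became 0.0974 after Benjamini-Hochberg adjustment over the 15, and the others were at 0.595 or above.

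Above 0 by their deposited median were 4 of 6 CHF arrays and 2 of 6 CON arrays. With the side of the median as a block, the CHF minus CON difference of Ckm was 0.01 ± 0.29 and that of Myh6 was 0.64 ± 0.26 (adjusted p = 0.23). Those of Myh1, Myh3 and Ttn were -0.48, -0.53 and 0.89, with adjusted p of 0.30, 0.30 and 0.23. Among the 8 RV arrays below 0 (2 CHF, 2 HYP and 4 CON) the difference of Ttn was 1.84 ± 0.41 (adjusted p = 0.029), where 8.93% of 2272 features passed, and that of Myh6 was 1.18 ± 0.36 (0.071). These 2 CHF arrays, 10 and 14, are the ones with the large probe 1997 values. They are also the RV arrays whose sign was turned, so the direction of both differences is not settled. From the 3 titin probes with a value on every array, the Ttn difference over all 18 RV arrays was 0.20 ± 0.24. With the sign turned, the Ttn difference was -0.28, that of Myh6 -0.34 and that of Myh3 0.11, all in the other direction from the values above, while Ckm (-1.26) and Myh1 (-0.81) kept theirs.

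**Figure D4:**
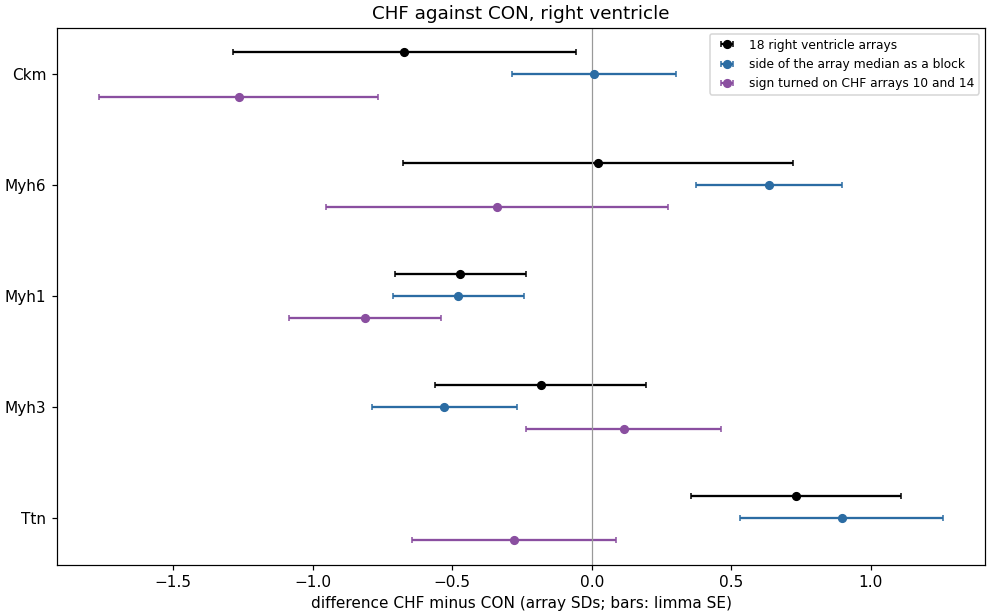
Difference CHF RV minus CON RV in array SDs (horizontal axis) with the limma SE as bars, for the 5 genes (vertical axis). Black points are the fit of all 18 RV arrays, blue points the fit with the side of the array median as a block, and purple points the fit after turning the sign of CHF arrays 10 and 14. Myh6 is at 0.02, 0.64 and -0.34 in these 3 fits, and Myh1 is below 0 in each.

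HYP RV against CON RV gave 0 of 5 genes past the test as well, where 0.281% of 3199 features passed. Groups were free of overlap in 0 of 5 genes and in 1.91% of features. HYP minus CON was -0.38 ± 0.61 for Ckm, -0.37 ± 0.24 for Myh1, 0.37 ± 0.38 for Myh3, -0.31 ± 0.67 for Myh6 and 0.30 ± 0.37 for Ttn, each with an adjusted p of 1.0, and the lowest unadjusted p of the 5 was 0.130. In CHF against HYP 0 of 5 genes passed, and 0% of 3199 features did, of which 158 had an unadjusted p below 0.05, as 0 of 5 genes did. The groups were free of overlap in 2.56% of features and 0 of 5 genes. The differences there were -0.56 ± 0.38 for Myh3, 0.43 ± 0.37 for Ttn, 0.33 ± 0.70 for Myh6, -0.30 ± 0.61 for Ckm and -0.10 ± 0.24 for Myh1 (adjusted p 0.94 to 0.98). With the side of the median as a block the HYP minus CON difference of Myh6 was 0.45 ± 0.25 and that of Ckm 0.30 ± 0.29, both with the opposite sign. The CHF and HYP groups share the CON arrays, so these comparisons are not independent.

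Right against left ventricle gave calls for creatine kinase and titin, both lower in the RV. Averaged over the 3 conditions, RV minus LV was -2.14 ± 0.49 for Ckm (adjusted p = 0.0075) and -1.17 ± 0.28 for Ttn (adjusted p = 0.011), so 2 of 5 genes passed, where 18.3% of 2494 features did. Every LV array exceeded 14 of 18 RV arrays for Ckm and 16 of 18 for Ttn. The RV samples averaged -0.38 ± 1.12 for Ckm (SD, n = 18) and the LV samples 1.76 ± 0.69 (n = 6), and for Ttn 0.08 ± 0.69 in RV and 1.25 ± 0.35 in LV samples. Myh6 at -1.40 ± 0.52 (adjusted p = 0.065), Myh3 at 0.81 ± 0.29 (0.055) and Myh1 at 0.45 ± 0.19 (0.094) did not pass. The median over the 5 genes was -1.17, against 0.0344 over all features. The features called were 294 higher and 163 lower in the RV. Without centring they were 425 and 138, with a median over all features of 0.197, and Myh1 (0.61, adjusted p = 0.035) and Myh3 (0.98, 0.037) passed as well. By single probe, titin probe 582 was -2.04 ± 0.27 (adjusted p = 0.00013), among 18% of 2540 probes called, while probe 4237 differed by 0.08 ± 0.21 and probe 4267 by 0.04 ± 0.25. The mean of the 3 titin probes with a value on all arrays differed by -0.64 ± 0.18 (adjusted p = 0.021).

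All 6 LV arrays had a median below 0, and so had 8 of the 18 RV arrays. Within these 14 arrays the difference was -0.997 ± 0.35 for Ckm (adjusted p = 0.18), -0.82 ± 0.24 for Ttn (0.13) and -0.11 ± 0.28 for Myh6 (0.87), where 0.897% of 2118 features passed. It was 0.17 ± 0.22 for Myh3 and 0.39 ± 0.24 for Myh1. Titin probe 582 kept its call there, at -2.04 ± 0.32 (adjusted p = 0.016), among 0.928% of 2156 probes called. With the sign turned on 5 arrays, 3 of them LV arrays, Ckm was at -0.38, Ttn at -0.07 and probe 582 at 0.17, and 0 features passed in the comparison. Myh6 was then at -0.91, Myh1 at 0.42 and Myh3 at 0.18. All 5 genes kept their direction with the sign turned, but neither Ckm nor Ttn its call, and probe 582 was turned to the other direction. Because the LV arrays to turn were picked for being unlike the RV arrays, this fit cannot decide whether the calls hold.

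**Figure D5:**
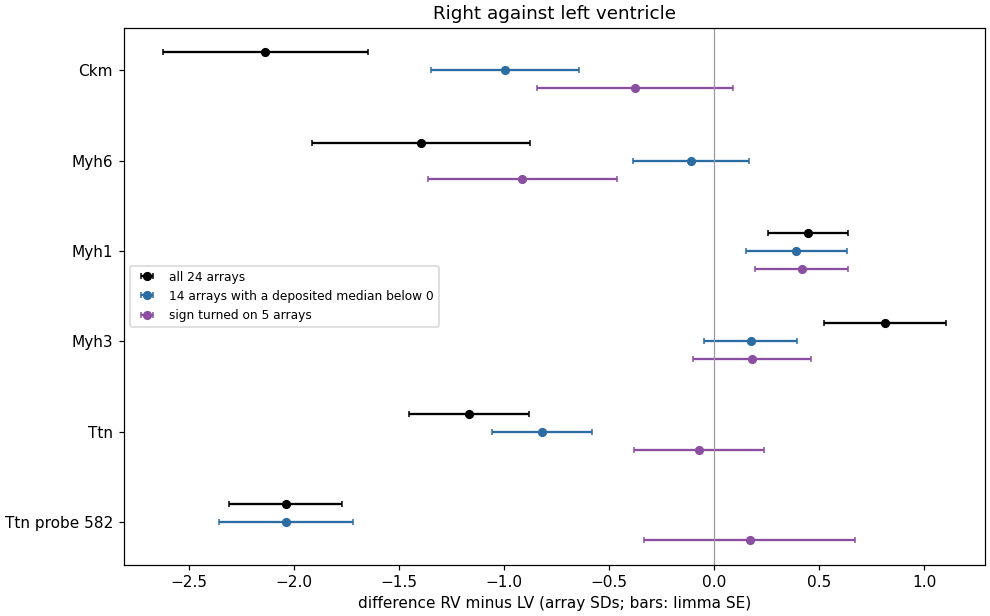
Difference RV minus LV, averaged over the 3 conditions, in array SDs (horizontal axis) with the limma SE as bars, for the 5 genes and titin probe 582 (vertical axis). Black points are all 24 arrays, blue points the 14 arrays with a median below 0, and purple points the fit with the sign turned on 5 arrays. Probe 582 is at -2.04 in the first 2 fits and at 0.17 in the third.

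Left ventricle comparisons, with 2 arrays a group, gave 0 of 5 genes past the test in each of CHF against CON, HYP against CON and CHF against HYP, where 0% of 2494 features passed, and 0 of 5 at an unadjusted p below 0.05, where 22, 46 and 75 features had one. Groups without overlap were 2 of 5 genes in CHF against CON (27.2% of features), 3 of 5 in HYP against CON (34.5%) and 0 of 5 in CHF against HYP (30.6%). The 3 tests of whether an effect differs between RV and LV called 0 of 5 genes and 0% of 2494 features, with 0 of 5 genes and 34 to 68 features at p below 0.05 before adjustment. With the sign turned, 9 features were called for CHF against CON and 33 for HYP against CON, 0 of 5 genes among them. After turning the sign, HYP against CON in the LV called 3.85% of 2494 features, Ckm at 3.63 (adjusted p = 0.041) and Ttn at 2.78 (0.029) among them, against -0.31 and -0.40 without turning.

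Other genes of the sarcomere and of creatine metabolism place these values, by lists assembled with results of these data known. Of 4 other myosin heavy chains measured, 0 passed in any of the RV comparisons or in RV against LV. Myh14 was at -0.20 and Myh11 at -0.12 in CHF against CON. Of 5 genes of the thick filament and M band, Capn3, a protease that binds titin, rose by 2.31 in CHF RV against CON RV (adjusted p = 0.000149) and by 1.74 in HYP RV (adjusted p = 0.012). The other 4 did not pass, and neither did any of 5 tested genes of the Z disc, where Ankrd1, which binds titin, was at 1.56 (adjusted p = 0.11), Cryab at -0.77 and Pdlim3 at -0.64.

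In CHF RV against CON RV, adult cardiac sarcomere genes gave 0 of 5, with Tnnt2 at -0.95, Mb at -0.86 and Tnni3 at -0.78. Among the RV arrays with a median below 0, Myl3 passed at 3.97 (limma adjusted p = 0.010), and Tnni3, Tnnt2, Myl2 and Mb did not. With the sign turned, over all RV arrays, Myl3 was at -2.10. Of 16 skeletal muscle genes, 5 were above 0 in CHF RV, and their median difference was -0.286, against -0.0992 over all features. The 3 past the test were higher: Acta1 (skeletal actin) by 4.35, Tpm3 (slow tropomyosin) by 2.91 and Pvalb (parvalbumin) by 1.18. Their adjusted p were 0.000157, 0.000122 and 0.0195. In HYP RV Acta1 rose by 3.11 and Tpm3 by 1.91. With the sign turned, Capn3 and Tpm3 kept their calls in CHF RV, at 1.86 and 2.35. Acta1 stood at 3.31 (adjusted p = 0.085) and Pvalb at 0.61 (0.52). The HYP differences of Capn3, Acta1 and Tpm3 hold no turned array and stayed as they were, but their adjusted p were 0.14, 0.29 and 0.14. Acta1, listed for embryonic muscle too, and Acta2 (smooth muscle actin), at 1.58, were the 2 of 7 embryonic muscle genes past the test in CHF RV. Of these 7 genes, 3 were above 0, and their median was -0.280. With the sign turned Acta2 was at 1.25 (adjusted p = 0.085). The skeletal and embryonic heavy chains Myh1 and Myh3 were at -0.47 and -0.18. Creatine and phosphagen genes gave 0 of 10, with Slc6a8 at -0.53, Ckmt2 at -0.41 and Ckb at 0.25, and regulators of myosin isoforms gave 0 of 9, with Usf1 at -0.25, Thra at -0.24 and Ppp3ca at -0.21.

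In RV against LV, 3 of 13 skeletal muscle genes passed, where 18.3% of 2494 features did, a share to set beside each count that follows. Tnni1 (slow skeletal troponin I) was higher in the RV by 1.59 (adjusted p = 6.3e-05), Tpm3 was higher by 0.88, and Pygm, muscle glycogen phosphorylase, was lower, at -1.23. Of 6 embryonic muscle genes, Tnni1 and Acta2, at 0.58, were higher, and of 5 adult cardiac sarcomere genes the ventricular light chain Myl3 was lower, at -2.95. Of 3 thick filament genes, Capn3 was higher (0.81) and Fhl2 lower (-1.30), and of 4 Z disc genes Pdlim3 was higher (0.84) and Cryab, a small heat shock protein, lower (-1.77). Of 10 creatine and phosphagen genes Gamt, which makes creatine, was higher (0.77), as was the adenylate kinase Ak4 (0.59). Only 3 of these 10 were above 0, and their median was -0.472, against 0.0344 over all features. Of 8 regulators, the retinoid receptor Rxrg (1.17) and Usf1 (0.61) were higher, and the calcineurin subunit Ppp3ca was lower (-1.33). Rxrg and Usf1 were the only 2 of the 8 above 0, and the median was -0.391. Within the arrays below 0, Tnni1 kept its call, at 1.21 (adjusted p = 0.011), Rxrg had too few values, and the others named here did not pass.

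Some markers of other cells passed in RV against LV beside Ckm and Ttn. All 4 tested erythrocyte markers were lower in the RV, with Hba-a1 at -6.29, Hbb at -5.89, Hbb-b1 at -5.0 and Alas2 at -1.91. The mean score of the 3 of 10 listed erythrocyte genes with values on all arrays ranged from -6.65 to -0.74 in RV arrays and from -6.55 to 5.43 in LV arrays. Lum and Vim, 2 of 7 tested fibroblast markers, were higher in the RV, and Pam, 1 of 3 atrial markers, was lower. Of smooth muscle markers 1 of 5 was higher, and 0 of 2 endothelial and 0 of 3 macrophage markers passed. Of 11 cardiomyocyte markers tested, 2 were called lower in the RV, Ckm and Myl3. Only 1 of the 11 was above 0, and the median was -0.712. In this comparison 18.3% of 2494 features passed, and 0 did with the sign turned on 5 arrays. In CHF RV against CON RV, 1 of 6 smooth muscle markers, Acta2, passed without turning the sign, and 0 of 4 erythrocyte, 0 of 8 fibroblast, 0 of 2 endothelial, 0 of 3 macrophage and 0 of 3 atrial markers did. The mean score of the 9 cardiomyocyte markers with values on all arrays, Ckm among them, ranged from -2.43 to 0.53 on RV arrays above 0, from 0.28 to 1.30 on RV arrays below 0 and from 0.76 to 1.43 on LV arrays, and 0 of 12 cardiomyocyte markers passed in CHF RV against CON RV. The part of these markers in the results was not tested, and in whole ventricle RNA fewer cells of a type and less RNA per cell cannot be told apart.

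The genes most like each member over the 18 RV arrays, by Pearson's r over 1482 named features with values on all of them, are given as a description. For Ckm these were Hivep1 (r 0.97 over all RV arrays, 0.93 over 10 above 0 and 0.74 over 8 below 0), Thtpa, Mrpl17, Exoc8 and Or1e16d, and with the sign turned the same 5 genes took ranks 1 to 5. For Myh3 they were Jmjd1c (0.88, then 0.80 and 0.71), Rida, Cblb, Slc35b1 and Ptk2. For Myh1 they were Nudt4 (0.84, then 0.70 and 0.95), Ptafr, Card9, Trdn and Dcn. For Ttn they were Arr3 (0.88, then 0.69 and 0.95), Gmfb, Acsm2, Atp2a2 and Pdia3. Atp2a2, the calcium pump of the sarcoplasmic reticulum, had r of 0.80 over all RV arrays but 0.17 over the 10 above 0. With the sign turned, Nudt4 had rank 47, Jmjd1c rank 8 and Arr3 rank 1. Myh6 has 17 RV values and no such list.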

How the data were processed

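Per the labels, each array set a ventricle sample against a reference pool. The authors deposited 1 score per probe and array, while scale, background correction, normalization and dyes are not stated in the sources used here. Log2 ratios had been assumed in the written design, and limma was kept for the scores, which are standardised within each array. Between 23.8% and 55.0% of values were missing per array. Scores were centred on each array's median, because medians differed by 0.417, and the probes of a gene that had a value were averaged. limma 3.58.1 in R 4.3.3 fitted the 18 RV arrays, or all 24 arrays in 6 groups, with Benjamini-Hochberg adjustment over all features with at least 2 values per group, at 0.05. The fit was tried on simulated data with independent noise on each array. Those data hold neither the kinds of array nor the negative correlations seen here, so they cannot show how the test behaves on these scores. Exact permutation tests used scipy 1.17.1. Numbers shared by RV and LV arrays were checked as pairs: correlations of their deviations were 0.285, 0.416, -0.297, 0.337, 0.0227 and -0.0455. The values -0.297, 0.0227 and -0.0455 are those of numbers 9, 21 and 22, whose LV arrays are among the 5 with a turned sign. The check therefore cannot decide on pairing. The labels state no pairing, and the main fit did not treat these arrays as pairs. Genes named are the 5 members, each probe, list genes past the test (otherwise the 3 of largest difference with values on all 12 CHF and CON arrays), and 5 likeness genes. Members and lists were chosen with earlier results of these data known. Alternatives were deposited scores, MAD scaling, turned signs, array weights, other filters, replicate blocks, left-out arrays and, after seeing the data, the side of the array median and the titin probes with values on all arrays. Names and promoters are from RefSeq (GRCr8).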

Additional observations from a re-analysis of the deposited data

Results flagged for a closer look

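Titin probe 582 had 1 array that stood apart within its group: CON RV array 22 was at 1.29, while the other 5 CON RV arrays lay between -0.35 and 0.21. The gap to the nearest array was 0.657 of the range of the 6 arrays. Chance gives about 1 such flag in 20 groups, and 1 of 25 groups tested was flagged. Without this array the RV minus LV difference of the probe was -2.12, against -2.04 with it.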

How the results depend on the processing

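Of the values recomputed under each alternative, 613 kept direction and side of the threshold, 36 reversed, 22 gained and 4 lost a call. Scaling by MAD, deposited scores, trend and robust fitting and the value-on-every-array filter reversed none. Counts of features past the test: CHF against CON RV, 29, became 0 with arrays above 0, 203 with arrays below 0, 51 with the side as a block, 9 with signs turned, and 16 to 38 leaving out 1 array (17 without CHF 10, 16 without CON 19). HYP against CON RV, 9, became 0 (arrays above 0), 1 (below 0), 0 (only these groups), 1 (signs turned) and 3 to 9 leaving out 1 array (3 without CON 18, 19 or 22 or HYP 1, 4 or 6, and 4 without CON 17). CHF against HYP RV, 0, became 1 with array weights, 1 with signs turned, and 0 to 1 leaving out 1 array (1 without CHF 11). HYP against CON LV, 0, became 96 with signs turned and 0 to 4 leaving out 1 array, and CHF against HYP LV 0 to 5, the top values being those without HYP 3. RV against LV, 457, became 1079 with array weights, 19 with arrays below 0, 0 with signs turned and 140 to 683 leaving out 1 array (140 without CHF LV 9, 153 without CON LV 22, 160 without CON LV 21, 264 without HYP LV 3 and 269 without CHF LV 15). The tests of a difference between ventricles, each 0, became for CHF against CON 9 with signs turned, 3 with array weights, 1 with MAD, 1 with a value on every array and 0 to 6 leaving out 1 array (6 without CHF LV 9, 2 without HYP RV 1, 1 without CON RV 19). For HYP against CON they became 33 with signs turned, 7 with a value on every array and 0 to 8 (8 without CHF LV 9 or CON RV 21, 7 without CHF LV 15, 4 without HYP LV 3 or HYP RV 5), and for CHF against HYP 0 to 1 (1 without HYP LV 3).

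Reversals of the gene differences were as follows, and their cause was not tested. With signs turned: Myh6 -0.34 and Myh3 0.11 in CHF against CON RV, Ttn -0.28 there and -0.58 in CHF against HYP RV, Myh6 -0.028 in the same, Ckm 3.63 and Ttn 2.78 in HYP against CON LV, probe 1997 -3.74 and probe 582 0.17. With array weights: Myh6 -0.81 and Myh3 0.093 in CHF against CON RV. With the side as a block: Ckm 0.0083 in CHF and 0.30 in HYP, and Myh6 0.45 in HYP, each against CON. With arrays above 0: Ckm 0.34, Myh1 0.059 and Myh6 0.093 in HYP against CON, Myh6 -0.061 and Ttn -0.051 in CHF against HYP. With arrays below 0: Ckm 0.26 in CHF against CON, Ckm 0.11 and Myh1 0.39 in CHF against HYP, Ckm 0.16, Myh3 -0.63 and Myh6 0.64 in HYP against CON. With the titin probes on all arrays, Ttn was -0.13 in HYP against CON RV. Leaving out 1 array, Ckm ran from -0.67 to 0.023 in CHF against HYP RV and -1.26 to 0.64 in HYP against CON LV, and Myh6 from -0.49 to 0.38 in CHF against CON and -0.18 to 0.72 in CHF against HYP RV. In RV against LV, no array left out ended the calls of Ckm (-2.45 to -1.82), Ttn (-1.27 to -1.07) or probe 582 (-2.17 to -1.91), while Myh1, Myh3 and Myh6 gained a call in 2, 4 and 3 of 24. Myh1 gained it without HYP LV 5 (0.62) or HYP RV 4 (0.51), Myh3 without CHF RV 10 or 14 or HYP RV 4 or 6 (0.84 to 0.92), and Myh6 without CHF RV 10 or 14 or HYP RV 4 (-1.57 to -1.52).

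The pairing of RV and LV arrays by number is not stated. Of the 6 RV arrays that share a number with an LV array, 5 had a median above 0. With the number as a replicate block over 6 pairs, RV against LV called 998 features, and Myh6 (-2.19), Myh3 (1.19) and Myh1 (0.58) passed. As a random block it called 744, and the same 3 genes passed. The scores give no measure of signal over background. Precision was taken from the spread between the 24 arrays.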
